A study of Rattus norvegicus with 9 samples.

Results

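The transforming growth factor beta (TGF-beta), activin and bone morphogenetic protein (BMP) genes of rat liver were examined as 1 signalling family. Its members were taken from a list of 47 genes that covers ligands, proteins that hold the ligands in a latent form, receptors, SMAD proteins, inhibitors and a few target genes. Membership follows the known role of each gene, but the list was drawn up when earlier results of these data were known. A member was measured when a probe set, a group of short oligonucleotides that reads 1 transcript, named it alone, which held for 45 members and 71 probe sets out of 14377 genes in all. Thbs1 and Acvr1b had no such probe set and were not analysed here. Liver RNA of 9 male Sprague-Dawley rats was read on Affymetrix rat genome expression arrays, 1 array per rat. The 3 vehicle rats were the controls, the 3 CCl4 rats had received the liver toxin CCl4 in olive oil by injection for 8 weeks, and the 3 CCl4+Rot rats had in addition received rottlerin, a BK channel activator, at 2.5 mg/kg body weight, from 2 weeks after the first CCl4 injection. No group received rottlerin without CCl4, and whole liver pieces were used, so fewer cells of a type and less RNA per cell cannot be told apart in any of the values below.

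TGF-beta is secreted bound to its own propeptide and to a latent TGF-beta binding protein, which ties it to the extracellular matrix until it is released. Released TGF-beta and activins act through receptor kinases that phosphorylate SMAD2 and SMAD3, BMPs act through related receptors on SMAD1, SMAD5 and SMAD9, and both branches share SMAD4. In liver, TGF-beta is known as a driver of the change of hepatic stellate cells into collagen-producing myofibroblasts, and BMP6 as a regulator of iron handling. The array values measure transcripts only, not the phosphorylated or latent proteins.

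The deposited values are log2 signals with a detection call for each probe set on each array. Hepatocyte markers were called present on every array (7 of 7 measured). Present calls covered 15550 to 16849 probe sets on 8 of the arrays but 12714 on CCl4 replicate 3, whose median log2 signal was 7.81 against 6.79 to 7.01 on the others, so results that rest on this array are given with and without it. Of the 45 members, 28 were called present on all 9 arrays and 38 on at least 3. Another 6 were called present on none (Tgfb1, Tgfb2, Tgfbr2, Inhbb, Fst and Nog), and Bmpr2 was called present on 2. Between 30 and 38 members were called present per array, the fewest again on CCl4 replicate 3.

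**Figure D1:**
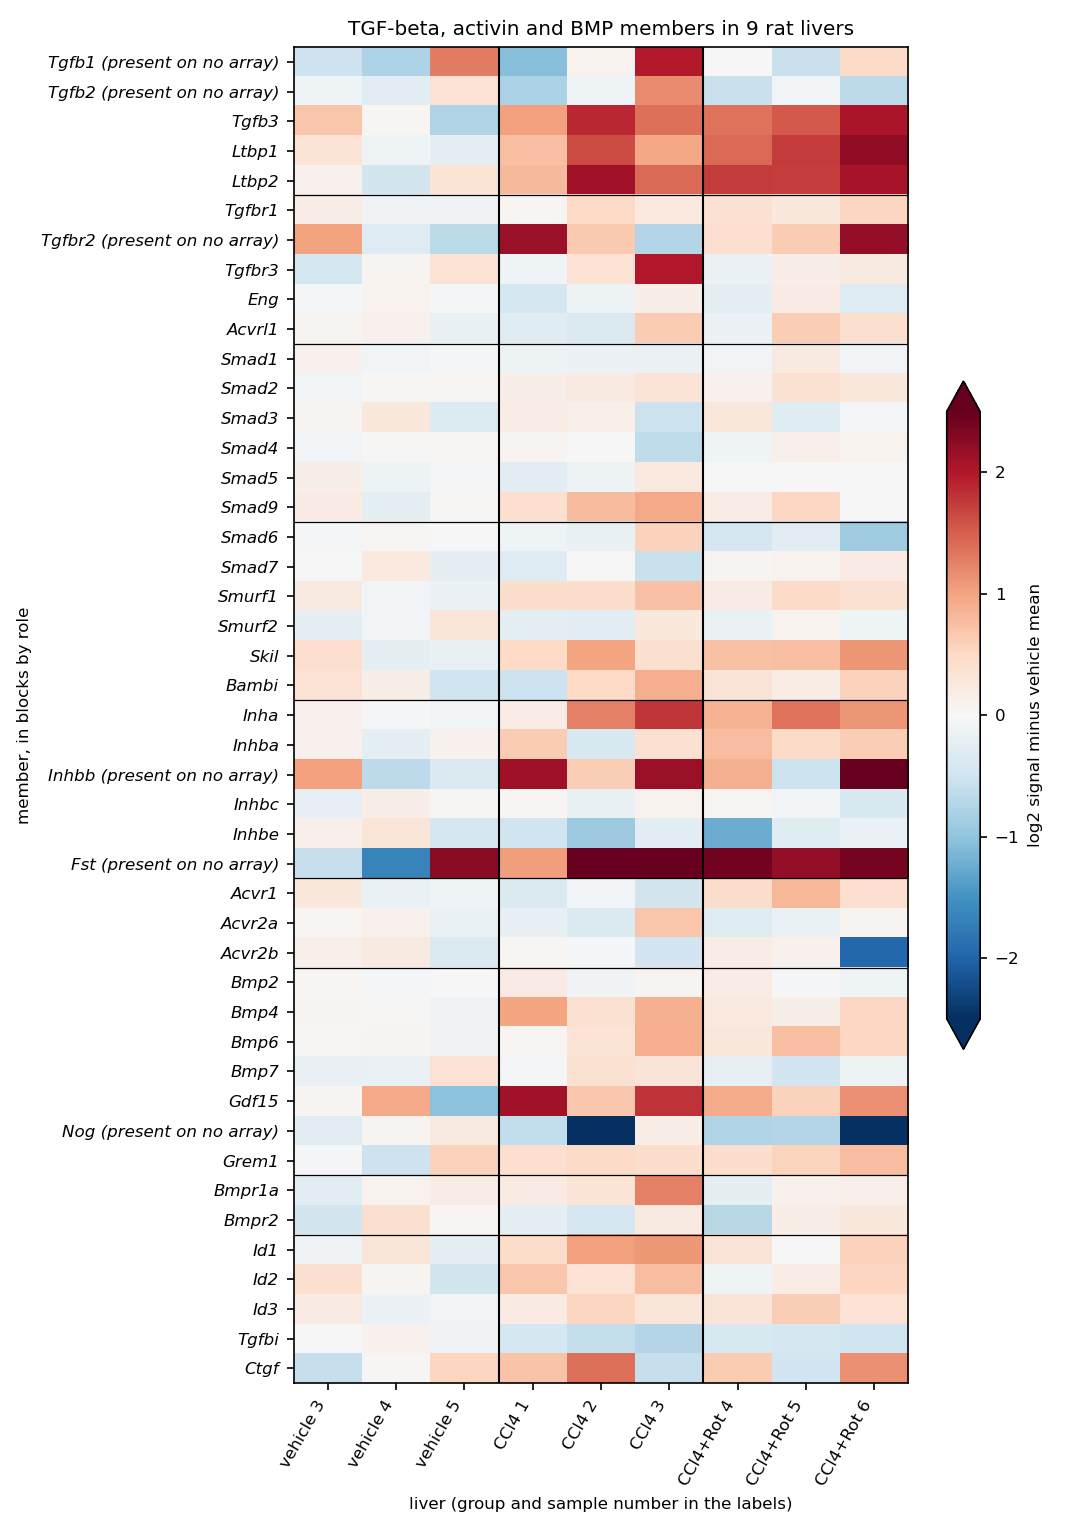
Log2 signal of each of the 45 measured members (rows, in blocks by role) on each of the 9 arrays (columns), minus the mean of the 3 vehicle arrays. Red is above and blue below the vehicle mean, with colours limited at the ends of the scale bar; Tgfb3, Ltbp1 and Ltbp2 were above it on all 6 arrays of the CCl4 and CCl4+Rot groups, and Tgfbi was below it on all 6.

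Where several probe sets named a gene, the one brightest on average stood for it, and limma was fitted over all 9 arrays, with p-values adjusted over 31042 probe sets. Called means an adjusted p below 0.05 and a difference of at least 1.5-fold. No member was called by limma between CCl4 and vehicle (0 of 45, against 0.0% of all genes), between CCl4+Rot and CCl4 (0 of 45, 0.0%) or between CCl4+Rot and vehicle (0 of 45, 0.0209%). When the variance was allowed to depend on signal level and outlying genes were down-weighted (the robust fit below), limma called Tgfbi between CCl4 and vehicle (1 of 45, against 1.62% of all genes), no member between CCl4+Rot and CCl4 (0.00696%), and Ltbp1, Ltbp2 and Tgfb3 between CCl4+Rot and vehicle (3 of 45, against 1.17%). When the robust fit was limited to probe sets present on at least 3 arrays, a setting chosen after seeing the data, it called Ltbp1, Ltbp2, Tgfb3 and Tgfbi between CCl4 and vehicle (4 of 38, against 3.47%), none between CCl4+Rot and CCl4 (0.0102%) and the same Ltbp1, Ltbp2 and Tgfb3 between CCl4+Rot and vehicle (3 of 38, against 2.2%). Without CCl4 replicate 3 the robust fit called no member between CCl4 and vehicle and 2 between CCl4+Rot and vehicle, Ltbp1 and Ltbp2. That omission was also chosen after seeing the data. No share over all genes is given for it, so these counts cannot be set against the background.

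At an unadjusted limma p below 0.05, 10 of the 45 members were higher in CCl4 than in vehicle liver (22.2%, against 9.49% of all genes) and 1 was lower (2.22%, against 4.01%). The 10 higher members were Bmp4, Gdf15, Id1, Inha, Ltbp1, Ltbp2, Skil, Smad9, Smurf1 and Tgfb3, and the lower one was Tgfbi. The count of 11 (24.4%, against 13.5%) was 7 without vehicle replicate 4 (against 8.21% of all genes). Under centring on the array median it was 3 (6.67%, against 9.44% of all genes), namely Ltbp2, Inha and Tgfbi. The excess of members over all genes was thus not seen under that scaling. It remained under quantile normalization, with 10 members (22.2%, against 12.3%), and without CCl4 replicate 3, with 9 (against 12.4%). The median of that array was 7.81, against 6.79 to 7.01 on the others. Median centring without that array was not tested. In a fit limited to probe sets present on at least 3 arrays the count was 12 of 38 (31.6%, against 19.5%). The list was drawn up with earlier results of these data known, so the excess is a description and not independent evidence. Between CCl4+Rot and CCl4, Acvr1 alone was higher (1 of 45, against 2.1% of all genes) and Smad6 alone lower (1 of 45, against 3.4%). This count of 2 (4.44%, against 5.5%) was 6 without CCl4 replicate 1 (13.3%, against 8.92% of all genes). It was 5 without CCl4 replicate 2 (11.1%, against 8.15%). It was 1 without vehicle replicate 3 (2.22%, against 4.87%) or 4 (2.22%, against 4.6%). It was 6 in the robust fit (13.3%, against 7.41% of all genes) and 7 of 38 in a fit limited to probe sets present on at least 3 arrays (18.4%, against 6.56%). Between CCl4+Rot and vehicle, 8 members were higher (17.8%, against 7.46%) and Tgfbi was lower (1 of 45, against 2.33%), a count of 9 that was 4 without CCl4+Rot replicate 5 and 5 without CCl4+Rot replicate 6 or vehicle replicate 4. The comparisons share arrays and are not independent of each other.

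The members whose groups of 3 arrays did not overlap were counted as well. In CCl4 against vehicle liver 10 members were higher on every array (22.2%, against 12.5% of all genes) and 2 lower (4.44%, against 8.53%), a total of 12 (26.7%, against 21.0%). Groups of 2 and 3 overlap less often for any gene, and the total was 19 without CCl4 replicate 2 (42.2%, against 29.9% of all genes) and 20 without CCl4 replicate 3 (44.4%, against 32.9%). In CCl4+Rot against CCl4 liver 3 were higher (Acvr1, Smad1 and Smad7, against 5.57%) and 3 lower (Bmp7, Bmpr1a and Smad6, against 5.6%), and the total of 6 (13.3%, against 11.2%) was 10 without CCl4+Rot replicate 6 (22.2%, against 18.6%), 12 without CCl4 replicate 1 (26.7%, against 26.8%) and 16 without CCl4 replicate 2 (35.6%, against 23.9%). In CCl4+Rot against vehicle liver 12 were higher (26.7%, against 15.2%) and 3 lower (6.67%, against 9.47%). A difference of 1.5-fold with no test was passed by 17, 6 and 12 members in the 3 comparisons, against 29.8%, 23.3% and 23.1% of all genes. These include members without a present call on any array. Among the 38 members present on at least 3 arrays the numbers were 13, 6 and 8 (34.2%, 15.8% and 21.1%). No share over all genes is given for that subset. The methods' t-test, with its p left unadjusted and 1.5-fold required, was passed by 7, 1 and 6 members, against 6.3%, 2.18% and 8.05%. The median log2 difference of the 45 members was 0.27 in CCl4 against vehicle, 0.03 in CCl4+Rot against CCl4 and 0.23 in CCl4+Rot against vehicle, beside 0.13, -0.05 and 0.03 over all genes. Without CCl4 replicate 3 the members' medians were 0.15, 0.12 and 0.23, and those of all genes 0.03, 0.01 and 0.03. Centring each array on its median instead of its trimmed mean lowered every CCl4 minus vehicle difference by 0.36, which turned the members' median to -0.09 and that of all genes to -0.23. The same centring moved the CCl4+Rot minus CCl4 medians to 0.28 for the members and 0.2 for all genes, and quantile normalization moved the CCl4 minus vehicle medians to 0.07 and 0.01.

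Among the listed ligands and latent TGF-beta binding protein (LTBP) genes, Tgfb3, Ltbp1 and Ltbp2 stood above vehicle in both CCl4 groups. Of the other LTBP genes, measured on the wider list, Ltbp3 and Ltbp4 overlapped with vehicle in CCl4 liver (log2 differences 0.32 and 0.54) and were above it on every array in CCl4+Rot liver (0.41 and 1.06). The log2 signal of Tgfb3, the third TGF-beta ligand, was 7.91, 7.27 and 6.47 in vehicle liver, 8.25, 9.11 and 8.60 in CCl4 liver and 8.57, 8.75 and 9.25 in CCl4+Rot liver. All 6 livers that had received CCl4 were above all 3 vehicle livers, and the CCl4 and CCl4+Rot groups overlapped. Tgfb3 was 2.71-fold higher in CCl4 than in vehicle liver (log2 difference 1.44, SE 0.404, limma adjusted p = 0.26) and 3.12-fold higher in CCl4+Rot than in vehicle liver (1.64, adjusted p = 0.297, and 0.0465 in the robust fit). The log2 difference between CCl4+Rot and CCl4 was 0.20, with a 95% interval from -0.74 to 1.14.

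Ltbp1 encodes a protein that binds latent TGF-beta and anchors it in the matrix. Its log2 signals were 9.00, 8.54 and 8.41 in vehicle liver, 9.40, 10.29 and 9.62 in CCl4 liver and 10.07, 10.40 and 10.87 in CCl4+Rot liver. Again vehicle did not overlap with either CCl4 group, and only CCl4 replicate 2, at 10.29, reached into the range of the CCl4+Rot group. Relative to vehicle the means were 2.17-fold higher in CCl4 (log2 difference 1.12, SE 0.317, limma adjusted p = 0.261) and 3.48-fold higher in CCl4+Rot (1.8, adjusted p = 0.191, and 0.00733 in the robust fit). The CCl4+Rot mean lay above the CCl4 mean by 0.68 on the log2 scale, with a 95% interval from -0.06 to 1.41.

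Ltbp2, a matrix protein of the same family that is known to bind elastic fibre components rather than latent TGF-beta, was called present on no vehicle array, on 1 CCl4 array and on all 3 CCl4+Rot arrays. The log2 signals were 6.93, 6.36 and 7.16 in vehicle, 7.62, 8.92 and 8.24 in CCl4 and 8.57, 8.55 and 8.87 in CCl4+Rot liver. The signal was 2.72-fold higher in CCl4 than in vehicle liver (log2 difference 1.44, 95% interval 0.61 to 2.27, limma adjusted p = 0.239). It was 3.6-fold higher in CCl4+Rot than in vehicle liver (1.85, 1.02 to 2.68, adjusted p = 0.192, and 0.0196 in the robust fit). Both folds are point estimates against a vehicle signal that was not called present. CCl4+Rot and CCl4 livers overlapped and differed by 0.41 on the log2 scale, with a 95% interval from -0.42 to 1.24.

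Tgfb1 and Tgfb2, the other two ligands, were called present on no array, and no fold is given for them. Tgfb1, the ligand at the centre of the study, had log2 signals of 2.36, 2.11 and 4.16 in vehicle, 1.81, 2.97 and 4.86 in CCl4 and 2.86, 2.32 and 3.36 in CCl4+Rot liver. All 3 groups overlapped, and the lowest signal called present on an array lay between 2.31 and 3.64. The absence of a present call says that this probe set did not read Tgfb1 above its mismatch background, not that the liver lacked the transcript.

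The promoters of Tgfb3, Ltbp1, Ltbp2, Skil and Tgfbi are printed because these are the members of the TGF-beta branch and the LTBP family with the clearest differences from vehicle in either direction. Each sequence runs from 250 bases before to 50 bases after the transcription start as RefSeq gives it, in build GRCr8, 5' to 3' on the strand of the gene. The places are chr6:111456897-111457196, minus strand for Tgfb3, chr6:26177252-26177551, minus strand for Ltbp1, chr6:110257249-110257548, minus strand for Ltbp2, chr2:114203523-114203822, minus strand for Skil and chr17:7990064-7990363, minus strand for Tgfbi. Capitals mark GGCGCC, a GC-rich motif known to be bound by SMAD proteins.
Tgfb3: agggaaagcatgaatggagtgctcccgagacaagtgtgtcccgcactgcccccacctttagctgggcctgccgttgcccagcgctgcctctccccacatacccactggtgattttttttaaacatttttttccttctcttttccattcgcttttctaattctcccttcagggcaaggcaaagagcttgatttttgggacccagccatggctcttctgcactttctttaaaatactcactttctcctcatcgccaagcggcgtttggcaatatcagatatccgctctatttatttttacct
Ltbp1: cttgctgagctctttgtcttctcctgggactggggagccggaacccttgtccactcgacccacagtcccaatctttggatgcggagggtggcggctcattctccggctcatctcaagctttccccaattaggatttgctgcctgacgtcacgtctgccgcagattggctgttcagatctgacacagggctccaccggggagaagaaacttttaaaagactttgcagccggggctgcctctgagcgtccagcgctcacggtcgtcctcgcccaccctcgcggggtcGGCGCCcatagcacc
Ltbp2: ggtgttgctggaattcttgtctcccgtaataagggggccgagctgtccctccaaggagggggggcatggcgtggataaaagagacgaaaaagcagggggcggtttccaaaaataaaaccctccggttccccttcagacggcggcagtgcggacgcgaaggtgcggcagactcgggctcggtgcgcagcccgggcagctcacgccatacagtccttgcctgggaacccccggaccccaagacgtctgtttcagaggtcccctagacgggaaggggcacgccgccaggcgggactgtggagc
Skil: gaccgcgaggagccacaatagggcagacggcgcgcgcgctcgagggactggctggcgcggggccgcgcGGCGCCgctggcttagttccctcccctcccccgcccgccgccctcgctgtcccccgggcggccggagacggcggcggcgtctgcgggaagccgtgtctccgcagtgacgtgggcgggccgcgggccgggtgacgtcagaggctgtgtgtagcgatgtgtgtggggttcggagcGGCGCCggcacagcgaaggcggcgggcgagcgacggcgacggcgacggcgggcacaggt
Tgfbi: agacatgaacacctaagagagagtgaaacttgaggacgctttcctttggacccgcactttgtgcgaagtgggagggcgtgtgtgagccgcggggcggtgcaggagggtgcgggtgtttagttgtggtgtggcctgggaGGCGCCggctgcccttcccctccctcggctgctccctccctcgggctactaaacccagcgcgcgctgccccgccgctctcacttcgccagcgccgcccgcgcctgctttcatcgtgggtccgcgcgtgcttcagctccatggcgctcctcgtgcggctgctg
With the start base as position 0, GGCGCC began at position 35 in Ltbp1, at -182 and -9 in Skil and at -112 in Tgfbi, and the letters were not in the windows of Tgfb3 and Ltbp2. The motif was thus found beside members with higher and with lower signals after CCl4.

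RefSeq promoters could be matched by Entrez gene number for 38 of the 45 members. GGCGCC was in 14 of these 38 (36.8%) and in 11.0% of all 33469 rat promoters of the same length. Each member was given the first listed promoter of its gene, whereas every listed promoter was kept in the shares over all promoters. The median GC content was 61.7% in the members' promoters and 51.7% in all promoters, and GC content was not taken into account in this share. CAGACA, a SMAD box with its flank, was searched on both strands together with its reverse complement TGTCTG and was in 4 of 38 (10.5%), against 21.1% of all. Those were the promoters of Bmp4, Inha, Inhba and Smad9. The palindromic SMAD element GTCTAGAC was in none of the 38 and in 0.197% of all promoters. None of the 3 motifs contains another, and a match describes the letters only.

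**Figure D2:**
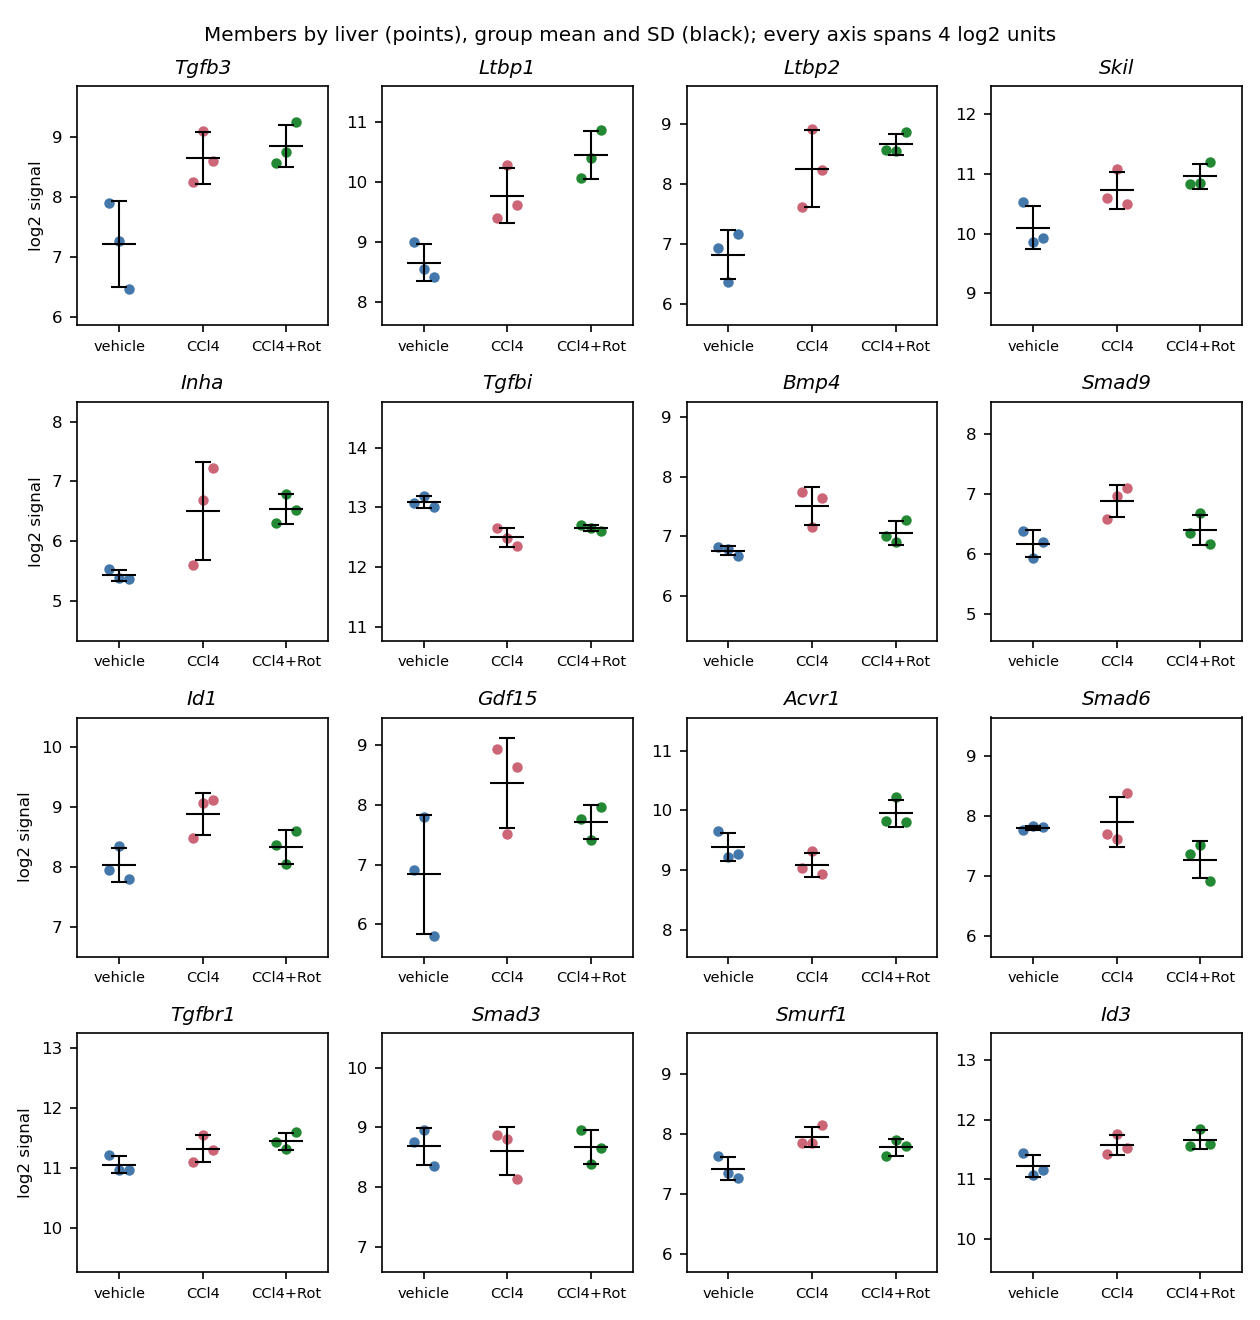
Log2 signal (vertical axes, each spanning 4 units) of 16 members in vehicle (blue), CCl4 (red) and CCl4+Rot (green) liver. Points are single livers, and black marks are the mean and SD of 3 livers; Tgfb3, Ltbp1 and Ltbp2 do not overlap with vehicle in either CCl4 group, whereas Bmp4, Smad9 and Id1 lie highest in the CCl4 group.

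None of the 5 TGF-beta receptor genes had an unadjusted limma p below 0.05 in any comparison with all 9 arrays. Tgfbr1, the type I receptor kinase, had log2 signals of 11.22, 10.97 and 10.97 in vehicle, 11.10, 11.55 and 11.30 in CCl4 and 11.43, 11.31 and 11.59 in CCl4+Rot liver. CCl4 livers overlapped with both other groups, while all CCl4+Rot livers were above all vehicle livers. The log2 difference was 0.27 for CCl4 minus vehicle (95% interval -0.16 to 0.69), 0.13 for CCl4+Rot minus CCl4 (-0.30 to 0.55) and 0.39 for CCl4+Rot minus vehicle (-0.04 to 0.82). Centring on the array median turned the first of these to -0.09. A second, dim Tgfbr1 probe set was called present on 1 array. Tgfbr2, the type II receptor, was called present on no array, with log2 signals of 5.54, 4.20 and 3.85 in vehicle, 6.68, 5.18 and 3.79 in CCl4 and 4.95, 5.16 and 6.72 in CCl4+Rot liver. Its groups overlapped in every comparison. The co-receptors Eng (endoglin) and Tgfbr3 (betaglycan) and the type I receptor Acvrl1 gave log2 differences of -0.14, 0.75 and -0.01 for CCl4 minus vehicle. Without CCl4 replicate 3 those of Eng and Acvrl1 were -0.29 and -0.33. The value of Tgfbr3 rested on CCl4 replicate 3, which read 8.90 against 6.46 to 7.25 on the other 8 arrays, and was 0.12 without it. Between CCl4+Rot and CCl4, Eng, Tgfbr3 and Acvrl1 differed by 0.03, -0.67 and 0.30. Without CCl4 replicate 3 these differences were 0.17, -0.04 and 0.62, and that of Acvrl1 had an unadjusted limma p of 0.0435.

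Of the SMADs that carry the signal, only Smad9 passed an unadjusted p of 0.05 in a comparison. Smad3, which the study followed as a protein, had log2 signals of 8.75, 8.95 and 8.35 in vehicle, 8.87, 8.81 and 8.14 in CCl4 and 8.96, 8.39 and 8.66 in CCl4+Rot liver. The 3 groups covered the same range. Its log2 differences were -0.08 for CCl4 minus vehicle (95% interval -0.72 to 0.57), 0.06 for CCl4+Rot minus CCl4 (-0.58 to 0.71) and -0.01 for CCl4+Rot minus vehicle (-0.66 to 0.63), and without CCl4 replicate 3 the first became 0.15 and the second -0.17. The second Smad3 probe set had no present call on any array.

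Smad2, the other SMAD of the TGF-beta and activin branch, was higher on all 3 CCl4 arrays than on the vehicle arrays, by 0.25 on the log2 scale (limma adjusted p = 0.533), and did not differ in mean between CCl4+Rot and CCl4 by more than 0.01 (95% interval -0.35 to 0.37). Smad4, Smad1 and Smad5 differed by -0.19, -0.15 and -0.05 between CCl4 and vehicle, and by 0.03, -0.14 and -0.2 without CCl4 replicate 3. Smad9, a SMAD of the BMP branch, read 6.38, 5.93 and 6.20 in vehicle, 6.59, 6.97 and 7.11 in CCl4 and 6.35, 6.68 and 6.17 in CCl4+Rot liver. Every CCl4 liver was above every vehicle liver, and the CCl4+Rot livers overlapped with both. Smad9 was 1.65-fold higher in CCl4 than in vehicle liver (limma adjusted p = 0.295), and CCl4+Rot lay 0.50 below CCl4 on the log2 scale (95% interval -1.02 to 0.03). It was called present on 2 vehicle arrays, 1 CCl4 array and 3 CCl4+Rot arrays, so its level was close to the detection limit.

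The inhibitors of the pathway did not move as 1 group. Skil encodes SnoN, a SMAD co-repressor whose gene is a known TGF-beta target. Skil signals were 10.52, 9.86 and 9.92 in vehicle, 10.59, 11.08 and 10.50 in CCl4 and 10.83, 10.85 and 11.20 in CCl4+Rot liver. CCl4 replicate 3, at 10.50, lay just under vehicle replicate 3, and all CCl4+Rot livers were above all vehicle livers. Skil was 1.54-fold higher in CCl4 (log2 difference 0.62, limma adjusted p = 0.39) and 1.81-fold higher in CCl4+Rot than in vehicle liver (0.86, adjusted p = 0.39), with 0.24 between CCl4+Rot and CCl4 (95% interval -0.36 to 0.84).

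Smad7 and Smad6, the inhibitory SMADs, pointed in opposite directions between CCl4+Rot and CCl4 liver. Smad7, which blocks the TGF-beta receptor, was higher on all CCl4+Rot arrays than on the CCl4 arrays, by 0.40 on the log2 scale (95% interval -0.07 to 0.88). Another Smad7 probe set, called present on 8 arrays, gave -0.31 for the same difference, so the 2 detected probe sets disagreed in sign. Smad6, which acts mainly on the BMP branch, had log2 signals of 7.77, 7.83 and 7.82 in vehicle, 7.70, 7.62 and 8.38 in CCl4 and 7.37, 7.52 and 6.92 in CCl4+Rot liver. The CCl4+Rot livers were the lowest 3 of the 9. Smad6 was 1.55-fold lower in CCl4+Rot than in CCl4 liver (log2 difference -0.63, unadjusted p = 0.041 and adjusted p = 0.749 by limma), and without CCl4 replicate 3 the difference was -0.39 with an unadjusted limma p of 0.0997. The 3 dimmer Smad6 probe sets, called present on 1 array between them, gave differences of -1.0, -0.67 and -2.23.

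Smurf1, a ubiquitin ligase that marks SMADs and receptors for breakdown, read 7.64, 7.35 and 7.27 in vehicle, 7.85, 7.86 and 8.15 in CCl4 and 7.63, 7.90 and 7.81 in CCl4+Rot liver. The CCl4 group did not overlap with vehicle and was 1.45-fold higher (log2 difference 0.53, limma adjusted p = 0.321). Smurf2, the related ligase, differed by -0.08, and Bambi, a decoy receptor without a kinase, by 0.29, or -0.02 without CCl4 replicate 3. The groups overlapped for both genes.

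Activins and inhibins are dimers of the products of the inhibin genes. Inha, the alpha subunit found in inhibins, read 5.54, 5.39 and 5.37 in vehicle, 5.61, 6.69 and 7.22 in CCl4 and 6.30, 6.79 and 6.53 in CCl4+Rot liver. All 6 livers that had received CCl4 were above the vehicle livers, CCl4 replicate 1 only narrowly. The mean was 2.11-fold higher in CCl4 (log2 difference 1.08, limma adjusted p = 0.343, and 0.72 without CCl4 replicate 3) and 2.15-fold higher in CCl4+Rot than in vehicle liver (1.11, adjusted p = 0.48). Inha was called present on 1 vehicle array and on all 6 others.

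Inhba, the activin A subunit, was higher on all CCl4+Rot arrays (9.84 to 10.13) than on the vehicle arrays (9.14 to 9.47), by 0.63 on the log2 scale (limma adjusted p = 0.618), with CCl4 livers between 8.98 and 10.00. Inhbc and Inhbe, activin subunits that liver makes in quantity, differed by -0.01 and -0.56 between CCl4 and vehicle and overlapped. The activin antagonist Fst was called present on no array, although its p was below 0.05 between CCl4+Rot and vehicle, where it is among the 8 members counted as higher and its groups overlapped. Inhbb was not detected either.

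Acvr1 encodes a type I receptor that serves BMPs and activins. It was the member that differed most between CCl4+Rot and CCl4 by p. Its log2 signals were 9.66, 9.23 and 9.28 in vehicle, 9.03, 9.32 and 8.93 in CCl4 and 9.82, 10.22 and 9.81 in CCl4+Rot liver. Every CCl4+Rot liver was above every other liver, and the CCl4 and vehicle livers overlapped. Acvr1 was 1.81-fold higher in CCl4+Rot than in CCl4 liver (log2 difference 0.86, 95% interval 0.37 to 1.35, unadjusted p = 0.00399 and adjusted p = 0.635 by limma), and 0.77 without CCl4 replicate 3. It was 1.47-fold higher than in vehicle liver (0.56, adjusted p = 0.527). The other 2 Acvr1 probe sets, called present on 9 and 8 arrays, gave 0.38 and 0.58 for CCl4+Rot minus CCl4, the same direction with overlapping groups. Between CCl4 and vehicle the probe sets disagreed in sign, at -0.30, 0.32 and 0.11. The activin type II receptors Acvr2a and Acvr2b differed by -0.17 and -0.39 between CCl4+Rot and CCl4, or 0.15 and -0.55 without CCl4 replicate 3, and the low mean of Acvr2b came from a single array, CCl4+Rot replicate 6 at 3.85.

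Several members of the BMP branch lay highest in CCl4 liver, with CCl4+Rot in between. Bmp4, a BMP ligand, read 6.82, 6.79 and 6.67 in vehicle, 7.75, 7.15 and 7.64 in CCl4 and 7.0, 6.9 and 7.28 in CCl4+Rot liver. Vehicle was below both other groups on every array, and CCl4+Rot replicate 6 was above CCl4 replicate 2. Bmp4 was 1.68-fold higher in CCl4 than in vehicle liver (log2 difference 0.75, SE 0.209, limma adjusted p = 0.259), and CCl4+Rot lay 0.45 below CCl4 (95% interval -0.94 to 0.03) and 0.30 above vehicle.

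Id1, an inhibitor of basic helix-loop-helix transcription factors and a direct BMP target, read 7.95, 8.34 and 7.80 in vehicle, 8.48, 9.06 and 9.12 in CCl4 and 8.36, 8.04 and 8.60 in CCl4+Rot liver. CCl4 did not overlap with vehicle, while CCl4+Rot overlapped with both. The CCl4 mean was 1.81-fold above vehicle (log2 difference 0.85, SE 0.258, limma adjusted p = 0.285), and CCl4+Rot lay 0.55 below CCl4 (95% interval -1.15 to 0.05). Id2, of the same gene family, gave 0.60 and -0.39 for these 2 differences, with overlapping groups. Id3 went another way, with 11.44, 11.08 and 11.16 in vehicle, 11.43, 11.76 and 11.52 in CCl4 and 11.55, 11.85 and 11.59 in CCl4+Rot liver. Its CCl4+Rot livers were all above vehicle, by 0.44 on the log2 scale (limma adjusted p = 0.583), and the 0.34 between CCl4 and vehicle became -0.01 under centring on the array median.

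Gdf15, a distant family member induced by cell stress, varied widely within vehicle, at 6.91, 7.79 and 5.81. CCl4 livers read 8.93, 7.51 and 8.64, and CCl4+Rot livers 7.76, 7.41 and 7.97. The groups overlapped in every comparison, and the 2.87-fold difference between CCl4 and vehicle had a log2 interval from 0.24 to 2.81 (limma adjusted p = 0.345). Bmp6 was between 7.65 and 7.81 in vehicle, 7.79 and 8.65 in CCl4 and 8.02 and 8.49 in CCl4+Rot liver, so that CCl4+Rot did not overlap with vehicle (log2 difference 0.52, adjusted p = 0.67). Bmp7 was lower on all CCl4+Rot arrays (7.55 to 7.90) than on the CCl4 arrays (7.98 to 8.41), by 1.40-fold. Bmp2 was flat, with 0.06, -0.05 and 0.01 in the 3 comparisons. The BMP antagonist Grem1 differed by 0.44 between CCl4 and vehicle, and Nog was called present on no array. The BMP receptor Bmpr1a was 0.60 higher in CCl4 than in vehicle liver, or 0.28 without CCl4 replicate 3, and lower by the same amounts in CCl4+Rot than in CCl4 liver.

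**Figure D3:**
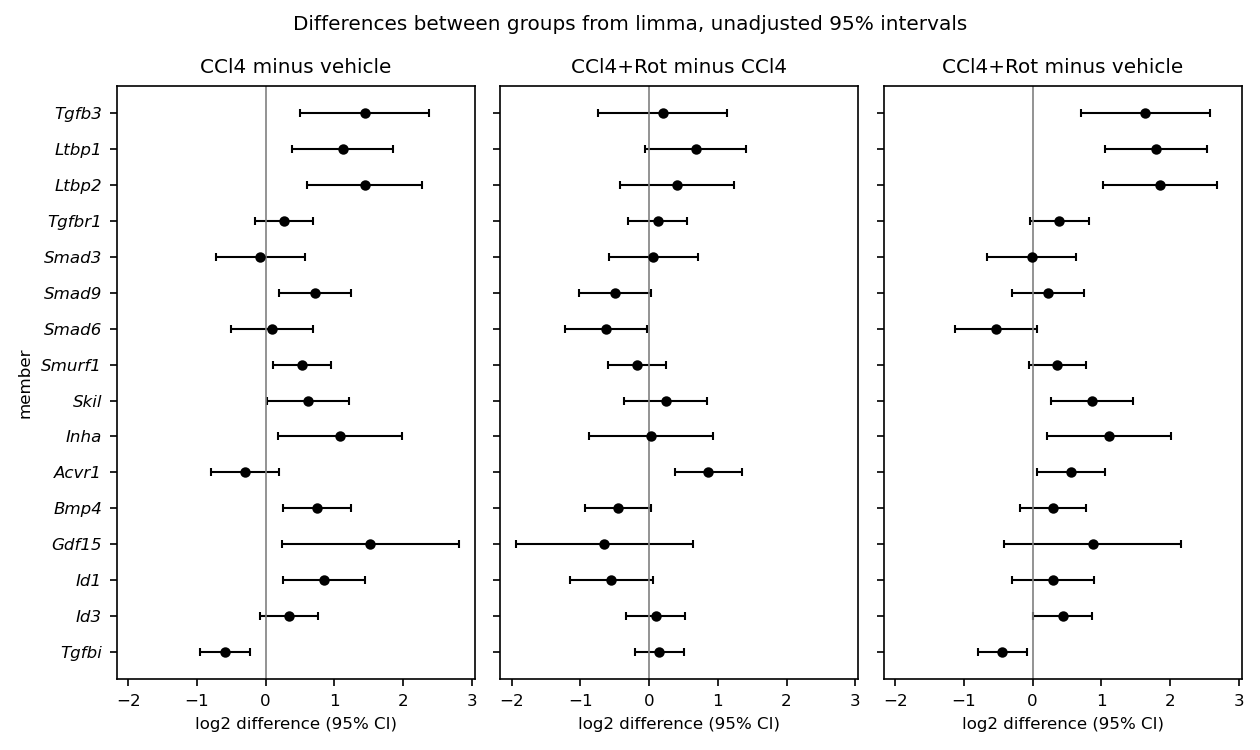
Log2 differences (points) with unadjusted 95% intervals (bars) from limma for 16 members, 1 panel for each of the 3 comparisons of groups. Between CCl4+Rot and CCl4 the interval of Acvr1 lies above 0 and that of Smad6 below it, while the intervals of all others cross 0; the Ltbp2 points are of a gene not called present in vehicle liver.

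Tgfbi was the only member that was lower after CCl4 at an unadjusted p below 0.05. It encodes a secreted matrix protein named for its induction by TGF-beta. The log2 signals were 13.08, 13.19 and 13.00 in vehicle, 12.66, 12.49 and 12.35 in CCl4 and 12.71, 12.65 and 12.60 in CCl4+Rot liver. Vehicle was above both other groups without overlap. Tgfbi was 1.5-fold lower in CCl4 (log2 difference -0.59, SE 0.154, limma adjusted p = 0.249, and 0.0406 in the robust fit) and 1.35-fold lower in CCl4+Rot than in vehicle liver (-0.44, adjusted p = 0.491). Without CCl4 replicate 3 the first difference was -0.51, with an adjusted p of 0.0472 in the robust limma fit but under 1.5-fold. Ctgf, a matricellular protein that is a classical TGF-beta target, differed by 0.50 between CCl4 and vehicle with a wide interval from -0.92 to 1.92. Its CCl4 livers read 10.29, 10.96 and 9.00, so that CCl4 replicate 3 was the lowest of all 9. Without it the difference was 1.04, with an unadjusted limma p of 0.103.

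Another 72 genes of the pathway were read from a wider list of ligands, receptors, antagonists, regulators and target genes. At an unadjusted limma p below 0.05, 11 of these were higher in CCl4 than in vehicle liver (15.3%, against 9.49% of all genes) and 2 lower (2.78%, against 4.01%). In CCl4+Rot against CCl4 liver 2 were higher (2.78%, against 2.1%) and 3 lower (4.17%, against 3.4%), and in CCl4+Rot against vehicle liver 15 were higher (20.8%, against 7.46%) and 2 lower (2.78%, against 2.33%). In CCl4 against vehicle 7 of the 11 came from the 21 target genes. Pmepa1, a TGF-beta target that dampens SMAD signalling, read 7.63, 7.81 and 7.94 in vehicle, 8.89, 9.17 and 8.90 in CCl4 and 9.19, 8.62 and 8.77 in CCl4+Rot liver. Both CCl4 groups were above vehicle without overlap (log2 differences 1.19 and 1.07, limma adjusted p = 0.18 and 0.192). Timp1, an inhibitor of matrix proteases, differed by 1.60 and 1.16 from vehicle. Cdkn1a, a cell cycle inhibitor not called present in vehicle liver, was 2.20-fold higher in CCl4 as a point estimate. The collagens Col1a1, Col1a2 and Col3a1 were 2.29, 1.81 and 1.17 higher in CCl4 and 2.74, 2.39 and 1.68 higher in CCl4+Rot than in vehicle liver on the log2 scale. Cthrc1 and Postn, secreted matrix-associated proteins, were called present on no vehicle array. As point estimates they were each 11.3-fold or more higher in CCl4 liver. With limma's ordinary variance, Cthrc1 in CCl4+Rot against vehicle was the only call on the wider list (10.7-fold as a point estimate, adjusted p = 0.0427). This was 1.39% of the list, against 0.0209% of all genes. The robust fit called 6 of the 72 in CCl4 against vehicle (8.33%, against 1.62% of all genes), namely Col1a1, Col3a1, Cthrc1, Pmepa1, Postn and Timp1. It called none in CCl4+Rot against CCl4 (against 0.00696%). In CCl4+Rot against vehicle it called 9 (12.5%, against 1.17%), which were those 6 with Col1a2, Fbn1 and Ltbp4. The count of 5 genes that passed an unadjusted p between CCl4+Rot and CCl4 was 18 without CCl4 replicate 2 (against 8.15% of all genes). It was 1 without CCl4+Rot replicate 4 or 5 (against 4.49% and 3.92%). It was 3 without CCl4+Rot replicate 6, CCl4 replicate 1 or CCl4 replicate 3 (against 4.14%, 8.92% and 5.84%).

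Markers of several cell types were read beside these members, and some of the lists differed between the groups. All 12 markers of hepatic stellate cells and myofibroblasts were higher in CCl4 than in vehicle liver, 8 of them at an unadjusted limma p below 0.05, and without CCl4 replicate 3, an omission chosen after seeing the data, 11 of the 12 were higher, Tagln being at -0.13 in place of 0.25. Acta2 went from 0.78 to 0.34 by the same omission. The summed linear signal of all 12 was 9800 to 15600 in vehicle, 21800 to 38400 in CCl4 and 32600 to 41300 in CCl4+Rot liver. Col3a1 weighed most in this sum, with log2 signals of 12.34 to 13.09, 13.52 to 14.39 and 14.2 to 14.43. Between CCl4+Rot and CCl4, 8 of the 12 were higher, and Acta2, Rgs5, Tagln and Des were lower (-0.28, -0.3, -0.12 and -0.02). Without CCl4 replicate 3, 11 of the 12 were higher and Rgs5 was at -0.55. The order of the groups in the sum was also that of the group means of Tgfb3, Ltbp1 and Ltbp2. Of these 12, 6 are also in the wider list of pathway genes and none is a member. The 5 measured cholangiocyte markers summed to 912 to 1070, 2610 to 5400 and 1270 to 2430, and the 7 proliferation markers to 2160 to 2330, 2820 to 4390 and 2410 to 3200, both with their highest values in CCl4 liver, as for Bmp4, Smad9 and Id1. Pcna weighed most in the proliferation sum and differed by 0.13 on the log2 scale between CCl4 and vehicle, while the median of the 7 was 1.54. Without CCl4 replicate 3 these were 0.29 and 1.15. The cholangiocyte sum was carried by Spp1, a secreted protein that other liver cells can also make, with log2 signals of 5.92 to 6.42 in vehicle, 9.9 to 12.11 in CCl4 and 8.11 to 10.46 in CCl4+Rot liver. Krt19 differed by 0.2 between CCl4 and vehicle, or -0.1 without CCl4 replicate 3, Epcam by 0.48 and Cftr by 0.93, and the mean of Cftr was highest in CCl4+Rot liver. Krt7 of the cholangiocyte list was called present on no array. Macrophage markers summed to 13600 to 20800, 20700 to 27500 and 23800 to 30900, with 6 of 8 higher in CCl4 than in vehicle liver and Trem2 called present on no array. Endothelial markers summed to 10100 to 11400, 7770 to 10800 and 10500 to 11500, and T and NK cell markers, 4 of whose 8 were not detected, to 673 to 815, 516 to 1540 and 886 to 1130. Hepatocyte markers summed to 188000 to 210000, 147000 to 210000 and 199000 to 212000. Between CCl4 and vehicle, the median log2 difference was -0.14 for hepatocyte and -0.02 for endothelial markers (0.06 and 0.04 without CCl4 replicate 3). The part of these cell types in the members' differences was not tested.

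**Figure D4:**
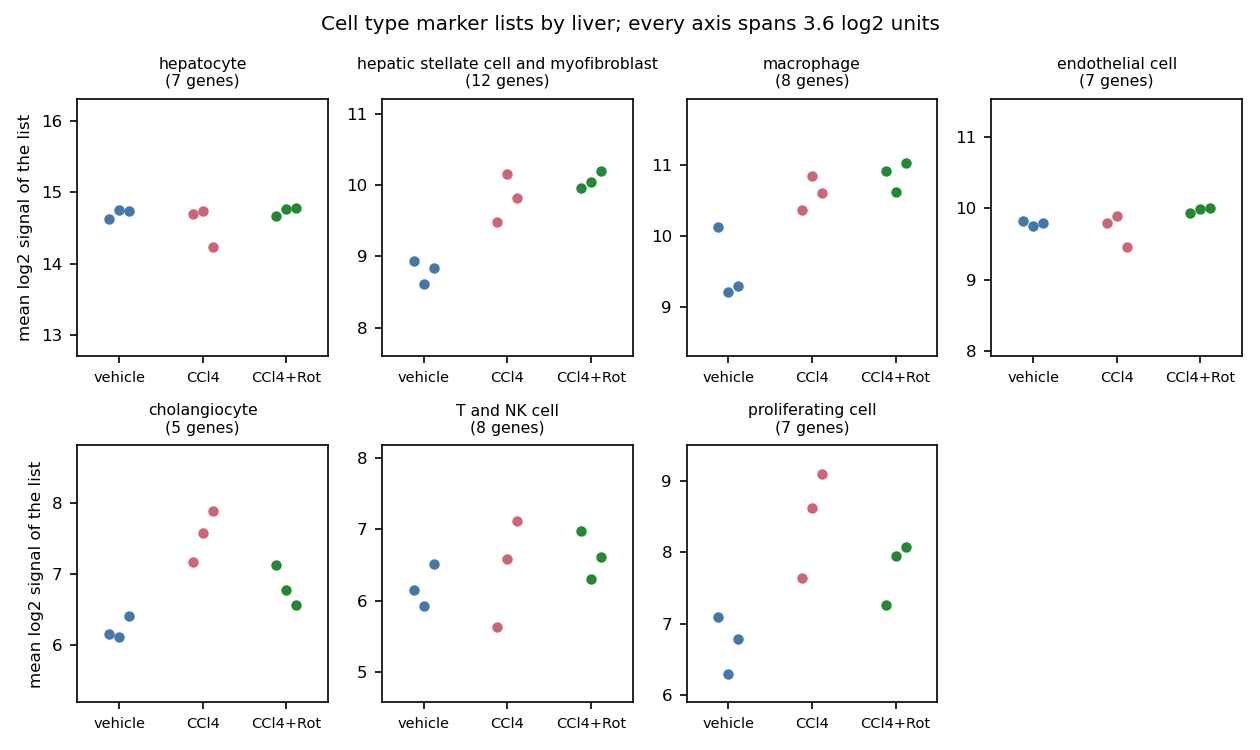
Mean log2 signal of the measured genes of each marker list (vertical axes, each spanning 3.6 units) in single livers of the vehicle (blue), CCl4 (red) and CCl4+Rot (green) groups. The stellate cell and myofibroblast list lies between 8.61 and 8.93 in vehicle and at 9.47 or more in the other livers, and the cholangiocyte list is highest in the CCl4 group, mainly through Spp1.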

How the data were processed

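Each liver was hybridised to 1 array. The authors deposited log2 signals with detection calls for 31099 probe sets. The submitters' processing notes name MAS5 and affy, whose versions and the genome build are not given in the sources used here. The antilogs share a trimmed mean of 500 on every array (2% trimmed at each end), and the number of arrays limits the precision.

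After removal of 57 control probe sets, 31042 were fitted with limma 3.58.1 (R 4.3.3) as 3 group means without a covariate, with Benjamini-Hochberg adjustment. The design gave no p below 0.1 in an exact permutation test. A gene was represented by the brightest of its single-symbol probe sets. Where only 1 of 2 groups had a present call, the fold was taken against the other group's signals. Any of these under the array's dimmest present probe set was first set to that value. Such a fold is a point estimate, not a lower limit. A gene present in neither was given no fold. Values were given per array for Tgfb1, Tgfbr1, Tgfbr2, Smad3 and members present on at least 3 arrays with an unadjusted p below 0.05 in any comparison, 18 in all, and up to 8 genes of the wider list were named by smallest p. Members and lists were chosen with earlier results of these data known. Replicates are separate livers in the labels, p-values measure only the spread between these samples, and numbers shared between groups mark different rats. Promoter sequences are from RefSeq (GRCr8). Python 3.11.15, pandas 2.3.3 and matplotlib 3.10.9 were used.

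Alternatives were a robust spread (statmod 1.5.0), quantile normalization, median centring, filters on dim or absent probe sets (30% or present on 3 arrays), 2-group fits, array weights, a replicate block, each array left out, the methods' t-test (named there for the study's data in general, not for the arrays), other fold rules and other probe set rules. The robust fits with the detection filter or without CCl4 replicate 3 were chosen after seeing the data.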

Additional observations from a re-analysis of the deposited data

How the results depend on the processing

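Of 786 recomputed differences of named members, 743 kept their direction and their side of the threshold, 13 passed it only under the alternative (all for Ltbp1, Ltbp2, Tgfb3 or Tgfbi in robust fits) and 30 changed sign, in 13 of 48 member comparisons. The cause was not tested in any case. Members called were 0 in every comparison under quantile normalization, median centring, array weights, the replicate block and each array left out (0 to 0). They were 1 and 3 with the robust spread (CCl4 minus vehicle and CCl4+Rot minus vehicle), 4 and 3 with the detection filter added, 2 in CCl4+Rot minus vehicle without CCl4 replicate 3, 17, 6 and 12 by 1.5-fold with no p, and 7, 1 and 6 by the methods' t-test without adjustment. That t-test called 0 after adjustment. Members with an unadjusted p below 0.05 numbered 7 to 12 in CCl4 minus vehicle with an array left out (8.21% to 19.3% of all genes). There were 3 under median centring (Ltbp2, Inha and Tgfbi, against 9.44% of all genes). In CCl4+Rot minus CCl4 they numbered 1 to 6 with an array left out (3.92% to 8.92% of all genes) and 6 with the robust spread (7.41%). They numbered 4 under quantile normalization (5.86%) or array weights, and 1 under median centring (5.04%) or a 2-group fit. With the detection filter they numbered 7, without or with the robust spread (6.56% and 7.85%). There were 5 without the dimmest 30% and 1 with the robust spread without CCl4 replicate 3. No share over all genes is given for the remaining fits. In CCl4+Rot minus vehicle they numbered 4 to 11 with an array left out (6.19% to 13.2% of all genes) and 15 with array weights. Members without overlap numbered 14 to 20, 8 to 16 and 17 to 21 with an array left out. These were 31.1% to 44.4%, 17.8% to 35.6% and 37.8% to 46.7% of the members. The shares of all genes were 25.9% to 39.3%, 17.9% to 26.8% and 31.5% to 37.1%. By unadjusted p the wider list gave 10 to 16, 1 to 18 and 14 to 19 with an array left out. In CCl4+Rot minus CCl4 it gave 13 with the robust spread (with or without the detection filter) and 10 with that spread without CCl4 replicate 3. It gave 8 there with the detection filter and 3 under median centring. The shares of all genes are those given above for the same fits.

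Sign changes in CCl4 minus vehicle were Acvr1 to 0.05 with the mean of probe sets, Id3 to -0.01 and Tgfbr1 to -0.09 under median centring, and Smad3 to 0.06 with array weights or without vehicle replicate 4, 0.15 without CCl4 replicate 3 (robust or not) and 0.52 with the mean of probe sets. Smad6 there became -0.11 under quantile normalization, -0.27 under median centring, -0.12 with array weights and -0.15 without CCl4 replicate 3 (robust or not). With an array left out, Smad3 ranged from -0.25 to 0.15 and Smad6 from -0.15 to 0.23. In CCl4+Rot minus CCl4, Inha became -0.09 without CCl4+Rot replicate 5 and -0.42 without CCl4 replicate 1 (at most 0.39 with an array left out), Skil -0.01, Tgfb3 -0.09 and Tgfbr1 -0.02 with array weights, Tgfb3 0.0 without CCl4 replicate 1 (at most 0.43), Tgfbr1 -0.65 with the mean of probe sets, and Smurf1 0.07 under median centring. Smad3 there became -0.13 with array weights, -0.08 without CCl4+Rot replicate 4, -0.17 without CCl4 replicate 3 (robust or not, at most 0.2 with an array left out) and -0.84 with the mean of probe sets. In CCl4+Rot minus vehicle, Smad3 became 0.12 without CCl4+Rot replicate 5 or vehicle replicate 4 and 0.02 without vehicle replicate 3 (at least -0.18 with an array left out), and Tgfbr1 -0.36 with the mean of probe sets. The replicate block (consensus correlation -0.0327) left 11, 2 and 9 members with an unadjusted p below 0.05 and changed no call. Deviations of same-numbered samples correlated at -0.0896, -0.00466 and -0.0125, and those of differently numbered samples at -0.146 to 0.135. The same-numbered samples thus gave no sign of pairing, but so few pairs cannot exclude it. CCl4 and CCl4+Rot share no number and CCl4 and vehicle share 1.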
